A study of Rattus norvegicus with 6 samples.

Results

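The lysyl oxidase family holds Lox, Loxl1, Loxl2, Loxl3 and Loxl4, and the members were taken by these symbols: 5 of the 18923 genes in the files, each with 1 identifier. The RNA-Seq compared primary chondrocytes, the cells of cartilage, from newborn female Sprague-Dawley rats of wild-type (WT) genotype. The CON group (n = 3) was kept for 24 h in high-glucose DMEM with FBS and penicillin-streptomycin, and the RA group (n = 3) in this medium with 1 µM all-trans retinoic acid (RA), the vitamin A acid that binds retinoid receptors in the nucleus. The cells were in passage 1 or 2, and the labels do not say from how many animals each sample came, so the p-values measure the spread between these samples. Poly(A) RNA was sequenced to total counts from 29370025 to 38007486 per sample.

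Lysyl oxidases are copper-dependent enzymes that oxidize lysine and hydroxylysine side chains of collagen and elastin. The aldehydes formed condense into covalent cross-links, which give collagen fibrils and elastic fibres their strength and make collagen harder to degrade. Lox and Loxl1 are secreted as proenzymes whose propeptide is cut off by proteases of the Bmp1 family. Loxl2, Loxl3 and Loxl4 carry scavenger receptor cysteine-rich domains in its place. In cartilage this chemistry stabilizes the type II collagen network.

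In RA, Lox mRNA fell and Loxl1 mRNA rose, while Loxl2, Loxl3 and Loxl4 were not called, at 1.12-fold, 1.11-fold and 1.25-fold of their CON levels. The mean summed level of the family was 977 FPKM (counts per length of the gene and depth of the sample) in CON and 1040.4 FPKM in RA, of which Lox held 30.2% and 18.6%. Lox and Loxl1 were the members among the differentially expressed genes (DEGs). A DEG had an adjusted p (Benjamini-Hochberg, over all genes tested) below 0.05 by the quasi-likelihood test of edgeR, and its log2 fold change (log2FC) of RA over CON exceeded 0.58 in size. Of all 13438 genes tested, 4.96% were DEGs, 2.67% higher and 2.29% lower in RA. All 5 members passed the filter on low counts, with counts from 4802 to 51477 per sample. In bulk RNA, fewer cells of a type and less RNA per cell cannot be told apart.

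CON sample 1 stood apart from the other CON samples. Its log2 CPM correlated at 0.985 and 0.983 with CON samples 2 and 3 across the tested genes, which correlated at 0.992 with each other, and the RA samples correlated at 0.991 among themselves. The defining chondrocyte markers Col2a1 and Acan were high in every sample. The summed level of an 11-gene chondrocyte marker list was 6655, 8492 and 8788 FPKM in CON samples 1, 2 and 3 and from 4232 to 4566 FPKM in RA, most of it Col2a1. All 11 genes were lower in RA with an adjusted p below 0.05 (edgeR), 9 of them as DEGs (also 9 without CON sample 1, and 6 without RA sample 1). An 11-gene list of fibroblast and perichondrium markers summed to between 3859 and 5046 FPKM in CON and between 5000.0 and 5247 in RA. Most of this sum was Col1a1 and Col3a1, which did not pass the adjusted p (edgeR, 0.301 and 0.996). By the adjusted p (edgeR) 3 genes of this list were higher in RA, without overlap between the groups, and 1 was lower. These were Pdgfra (log2FC 0.44), Prrx1 (0.49) and Twist1 (0.43), all inside the fold threshold, and Postn, the 1 DEG of the list with edgeR. DESeq2 called 2 DEGs there. The macrophage markers summed to between 13.7 and 14.9 FPKM in CON and between 16.3 and 17.7 FPKM in RA, most of it Cd14, which had 11.9 to 13.5 FPKM in CON and 14.5 to 15.8 FPKM in RA (edgeR adjusted p = 0.138, unadjusted p = 0.0238). Cd68 had 0.912 to 1.3 FPKM over all samples. The endothelial markers summed to between 5.49 and 8.03 FPKM in CON and between 6.22 and 6.85 FPKM in RA, most of it Egfl7. Among the other macrophage markers Ptprc was at or below 0.027 FPKM and Adgre1 at or below 0.0104 FPKM in every sample, and among the other endothelial markers Cdh5 was at or below 0.00809 FPKM and Emcn was listed at 0 throughout. The part of these marker shifts in the results below was not tested.

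The promoters of Loxl1 and Loxl4 are shown because these members had the larger of the rises, with an adjusted p below 0.05. They are the 250 bases before the RefSeq start on the rat assembly GRCr8, 5′ to 3′ on the strand of the gene, at chr8:67612225-67612474 (minus strand) for Loxl1 and chr1:251365578-251365827 (minus strand) for Loxl4. The capitals mark GC boxes (GGGCGG).
Loxl1: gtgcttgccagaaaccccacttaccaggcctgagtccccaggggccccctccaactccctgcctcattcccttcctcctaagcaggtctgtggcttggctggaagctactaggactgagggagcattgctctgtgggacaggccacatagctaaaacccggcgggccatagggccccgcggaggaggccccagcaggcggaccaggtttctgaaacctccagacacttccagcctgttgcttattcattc
Loxl4: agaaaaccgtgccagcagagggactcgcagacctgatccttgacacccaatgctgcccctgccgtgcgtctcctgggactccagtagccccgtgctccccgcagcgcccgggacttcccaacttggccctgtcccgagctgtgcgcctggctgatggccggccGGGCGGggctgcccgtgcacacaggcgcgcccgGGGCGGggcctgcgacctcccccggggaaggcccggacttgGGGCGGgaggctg
Both strands were searched for GGGCGG, for TATAAA, for AGGTCA, the half-site that retinoid receptors bind, and for its direct repeats AGGTCANNNNNAGGTCA and AGGTCANNAGGTCA, whose matches also count as half-sites. The Loxl4 sequence held 3 GC boxes, starting at -87, -54 and -13 from the gene's start, and no other match. The Loxl1 sequence and that of Loxl3, the third member with an entry in the RefSeq table, held none of the 5 motifs. Of 33469 rat promoters of the same length, 30.5% held a GC box, 12.9% TATAAA and 14.1% the half-site, while the direct repeats occurred in 3 and 0 promoters. The GC content was 60.4% for Loxl1, 62.4% for Loxl3 and 72.8% for Loxl4, against a median of 51.2% over all promoters.

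Lox (ENSRNOG00000014426), the founding member of the family, had 308, 293 and 282 FPKM in CON samples 1, 2 and 3 and 203, 192 and 185 FPKM in RA samples 1, 2 and 3. Every RA sample lay below every CON sample. The mean went from 294 ± 13.1 to 193 ± 8.97 FPKM (mean ± SD, n = 3 per group), a log2FC of -0.62 (standard error 0.0548, 95% interval -0.74 to -0.49, edgeR adjusted p = 2.76e-04), or 0.651 of the CON level. The estimate lay close to the fold threshold, which the interval spanned. The test was against no change, and the fold threshold was applied to the estimate alone. When single samples were dropped the estimate ranged from -0.65 to -0.59, and all 6 of these fits called Lox.

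Loxl1 (ENSRNOG00000008680), which is best known for elastic fibre maintenance, had 56, 84.9 and 91 FPKM in the CON samples and 144, 147 and 155 FPKM in the RA samples. The groups did not overlap, and CON sample 1 was the lowest of all samples. The mean went from 77.3 ± 18.7 to 149 ± 5.6 FPKM (mean ± SD, n = 3 per group), a log2FC of 0.93 (standard error 0.162, 95% interval 0.56 to 1.30, edgeR adjusted p = 0.00834), or 1.91-fold. Without CON sample 1 the log2FC was 0.74 (edgeR adjusted p = 2.9e-06), and without CON sample 3 it was 1.08. Over the 14 alternatives the adjusted p ran from 6.79e-08 (DESeq2) to 0.0417 (edgeR without RA sample 3). All 6 fits with a sample dropped called Loxl1.

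Loxl4 (ENSRNOG00000015727), a member with scavenger receptor domains, had 96.7, 114 and 107 FPKM in CON and 138, 134 and 129 FPKM in RA. All RA samples were above all CON samples. Its log2FC of 0.32 (standard error 0.0704, 95% interval 0.16 to 0.49, edgeR adjusted p = 0.0228) passed the threshold on p and not that on the fold, so it was not a DEG. The adjusted p was above 0.05 without RA sample 1 (0.101), RA sample 2 (0.106) or RA sample 3 (0.0731), with log2FC values of 0.31, 0.32 and 0.35. It was 0.00234 without CON sample 1, at a log2FC of 0.26.

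Loxl2 (ENSRNOG00000016758), known for the cross-linking of type IV collagen in basement membranes, had 259, 289 and 297 FPKM in CON and 322, 313 and 323 FPKM in RA. The lowest RA sample lay above the highest CON sample by less than the range of the CON samples. Its log2FC was 0.17 (standard error 0.0657, 95% interval 0.02 to 0.32, edgeR adjusted p = 0.167), and 0.11 without CON sample 1. Loxl3 (ENSRNOG00000061373), a member needed for normal skeletal and palate development, had 196, 227 and 230 FPKM in CON and 237, 249 and 250 FPKM in RA. Its log2FC was 0.16 (standard error 0.0731, 95% interval -0.01 to 0.33, edgeR adjusted p = 0.237), and 0.085 without CON sample 1. Neither gene passed the test, and both intervals lay inside the fold threshold of 0.58.

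**Figure D1:**
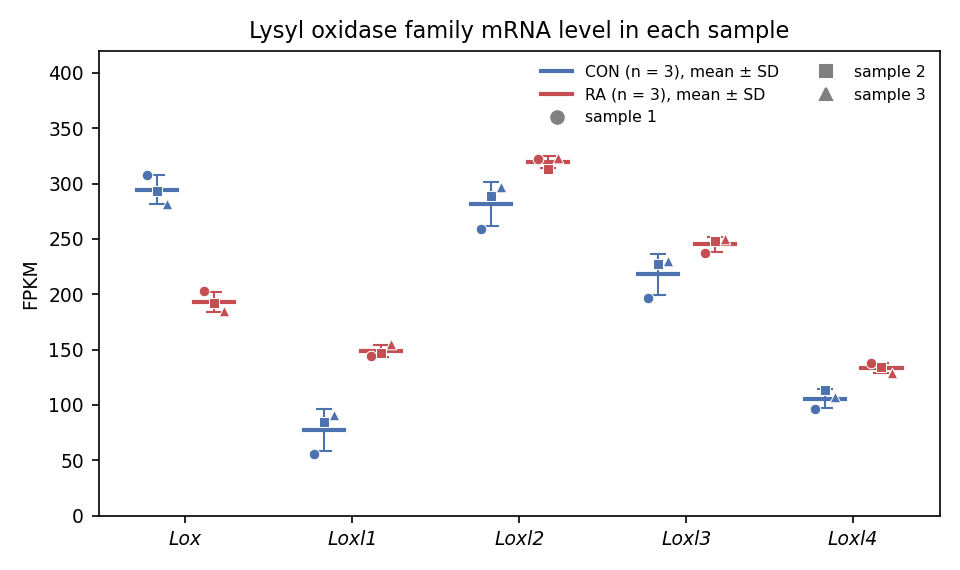
The y axis gives the level in FPKM of the 5 members on the x axis, with 1 point per sample (the symbol gives the sample number), a line for the mean and bars for the SD of the CON samples (blue) and RA samples (red). The RA points of Lox (185 to 203 FPKM) sit below its CON points (282 to 308 FPKM), and those of Loxl1 (144 to 155 FPKM) sit above its CON points (56 to 91 FPKM).

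In TMM-normalized CPM the groups did not overlap for any of the 5 members, 4 higher and 1 lower in RA. This was the case for 31.9% of all genes tested, 16.8% higher and 15.1% lower. Past the adjusted p alone were 3 members, against 9.82% of all genes, and past an unadjusted p with the fold threshold 2 members, against 7.57%.

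**Figure D2:**
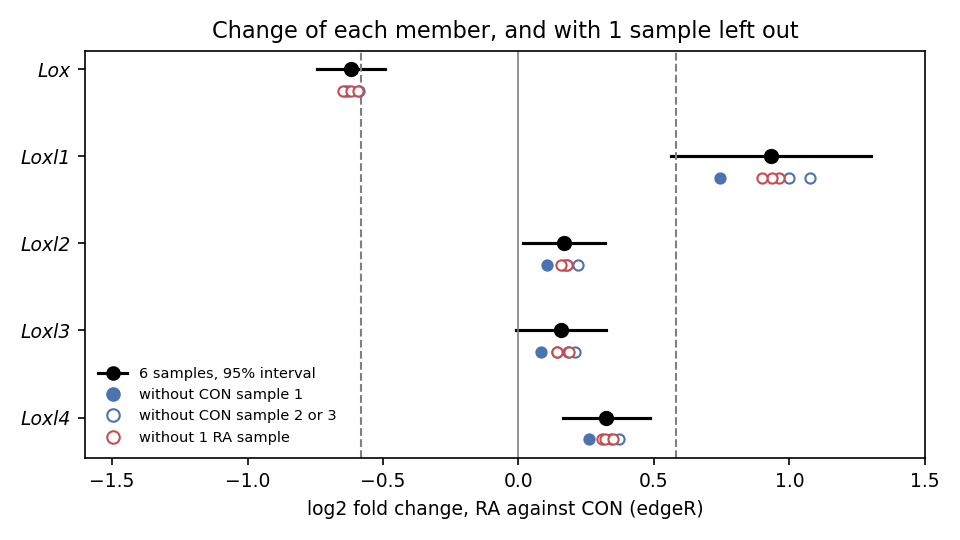
The x axis gives the log2FC of RA against CON from edgeR for each member on the y axis, with black points and 95% intervals for all 6 samples and smaller points for the fits that left out 1 sample (the legend gives which). Dashed lines stand at the fold threshold of 0.58 in either direction; Lox at -0.62 and Loxl1 at 0.93 lie outside, and the others between 0.16 and 0.32 lie inside.

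Levels per length, in FPKM, also changed their order between the groups. In CON the order by mean was Lox, Loxl2, Loxl3, Loxl4 and Loxl1. Lox and Loxl2 overlapped there, with Lox the higher in 2 of the 3 samples, and each other pair of neighbours was separated in every sample. In RA the order was Loxl2, Loxl3, Lox, Loxl1 and Loxl4, and no neighbours overlapped. This order rests on the lengths behind the FPKM, 4807 bases for Lox, 2249 for Loxl2 and 3198 for Loxl3. In TMM-normalized CPM, which is not divided by length, Lox was the highest member in every sample. In RA it had 888 to 964 CPM there, against 751 to 797 CPM for Loxl3. The family was abundant throughout: by mean FPKM in CON, Lox ranked 223rd and Loxl1 959th of the 18923 genes, and in RA they ranked 356th and 476th.

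CON samples 1, 2 and 3 had a summed family level of 916, 1008 and 1007 FPKM, and the RA samples had 1044, 1035 and 1042 FPKM. The means were 977 ± 52.7 in CON and 1040.4 ± 4.75 in RA (mean ± SD, n = 3 per group), a difference of 63.5 FPKM (two-sided exact permutation p = 0.1, the smallest that 3 against 3 samples allow). Without CON sample 1 the difference was 33.1 FPKM. FPKM divides counts by gene length, 4807 bases for Lox and 2249 for Loxl2, so a Lox count weighs less in this sum. Family counts not divided by length overlapped between the groups, relative to the total count. In CON samples 1, 2 and 3 they were 96211 of 30708423, 101338 of 30170909 and 126464 of 38007486. In RA samples 1, 2 and 3 they were 97029 of 29688242, 94846 of 29370025 and 99921 of 30952882. Relative to the total, every RA sample lay above CON sample 1 and below CON samples 2 and 3. Without CON sample 1 these counts were thus lower in RA, while the summed FPKM was higher. The difference in mean level, RA minus CON, was -101 FPKM for Lox, 71.7 FPKM for Loxl1, 37.6 FPKM for Loxl2, 27.9 FPKM for Loxl4 and 27.3 FPKM for Loxl3.

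Lox made up 33.6%, 29.1% and 28% of the summed family FPKM in CON and 19.4%, 18.5% and 17.8% in RA. The share of Loxl1 was 6.11%, 8.42% and 9.04% in CON and 13.8%, 14.2% and 14.9% in RA. Loxl4 went from 10.8% ± 0.397 to 12.8% ± 0.437 and Loxl2 from 28.8% ± 0.633 to 30.7% ± 0.403 (mean ± SD, n = 3 per group), also without overlap. Only the shares of Loxl3 overlapped between the groups, with means of 22.3% in CON and 23.6% in RA. The shares of a sample are parts of 1 sum, so a lower Lox share means a higher combined share of the other members. The exact permutation p was 0.1 for each member but Loxl3 (0.2). After Benjamini-Hochberg adjustment over 5 members it was 0.125, and 0.2 for Loxl3, which this number of samples cannot bring below 0.05.

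**Figure D3:**
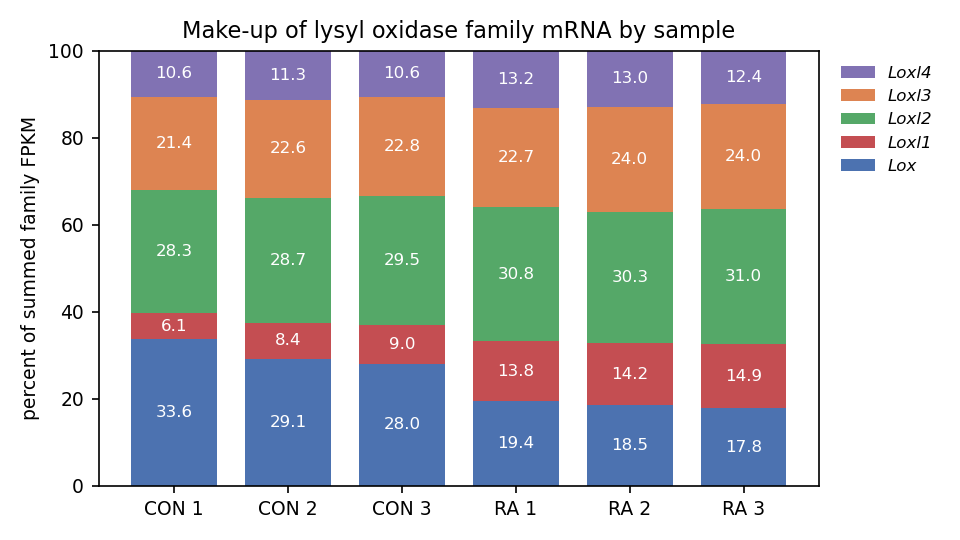
Each stacked bar is 1 sample on the x axis, and the y axis gives the percent of the summed family FPKM that belongs to each member, printed in the bar. The share of Lox is 28% or more in the CON samples and 19.4% or less in the RA samples, while that of Loxl1 is 9.04% or less in CON and 13.8% or more in RA.

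Ratios between members compare them within a library, so that the scaling of the libraries cancels. Lox FPKM stood to Loxl1 FPKM at 5.5, 3.45 and 3.1 to 1 in CON and at 1.4, 1.3 and 1.19 to 1 in RA, a difference of -1.58 in mean log2 ratio. Over the 10 pairs of members, 9 had ratios that did not overlap between the groups (exact permutation p = 0.1, adjusted p = 0.111 over 10 pairs, which 3 samples per group cannot bring below 0.05). Every pair with Lox or Loxl1 was among these 9, and the pairs share members, so they are not separate results. Ratios between other genes were not examined. Of single genes tested, 31.9% did not overlap in TMM-normalized CPM. The mean log2 ratio of Lox to Loxl2 differed by -0.79 between RA and CON, that to Loxl3 by -0.78 and that to Loxl4 by -0.95. The pair that overlapped was Loxl2 and Loxl3, whose log2 ratio was 0.37 ± 0.0261 in CON and 0.38 ± 0.0535 in RA (mean ± SD, n = 3 per group), with a range of 0.35 to 0.40 in CON and 0.33 to 0.44 in RA.

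The genes that prepare lysyl oxidases and present them to the matrix were next compared. Of 11 listed genes 9 were tested, of which 0 were DEGs higher and 2 lower in RA, with a median log2FC of -0.019 against -0.006 over all genes tested. Fmod, which encodes fibromodulin, a collagen-binding proteoglycan that can direct Lox to fibrils, had 391, 389 and 395 FPKM in CON and 188, 203 and 198 FPKM in RA, a log2FC of -1.01 (edgeR adjusted p = 2.54e-05). Postn, which encodes periostin, a scaffold for Bmp1, had 14.1, 11.6 and 10.9 FPKM in CON and 5.32, 4.64 and 5.15 FPKM in RA, a log2FC of -1.29 (edgeR adjusted p = 2.31e-04). All 6 fits with a sample dropped called both. Fn1 (fibronectin), the most abundant of the list at a mean of 5930 FPKM, had a log2FC of 0.28 (edgeR adjusted p = 0.0161), inside the fold threshold. Past the adjusted p alone (edgeR), 1 gene of the list was higher in RA and 3 were lower, the 2 DEGs among them. The protease gene Bmp1 itself, singled out for its role after its values were seen, had 33 ± 2.32 FPKM in CON and 33.5 ± 1.38 in RA (mean ± SD, n = 3 per group), a log2FC of 0.011 (95% interval -0.16 to 0.18).

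The lysyl hydroxylation genes make the hydroxylysines from which the more stable cross-links form. Of the 7 tested genes edgeR called 0 as DEGs, and 0 also had an unadjusted p under 0.05, while DESeq2 and limma called 0. Ppib, a prolyl isomerase and the most abundant of them, had a log2FC of -0.067, and P3h4, a partner of the lysyl hydroxylase complex with the largest difference of the list, had -0.19 (edgeR adjusted p = 0.224). The 7 copper supply genes gave 0 DEGs with edgeR, DESeq2 and limma, and 2 had an unadjusted p under 0.05 in edgeR. Among them Slc31a1, the copper importer, had 75, 58.8 and 61.7 FPKM in CON and 55.4, 51.6 and 55.9 FPKM in RA, a log2FC of -0.28 (edgeR adjusted p = 0.119).

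The substrates were listed as fibril collagens, elastic fibre genes and type IV collagens. Of 10 tested fibril collagen genes, 5 were DEGs and lower in RA and 0 were DEGs and higher, with a median log2FC of -0.56. These were the cartilage collagens Col2a1 at -0.78, Col9a1 at -0.86, Col9a2 at -0.76, Col11a1 at -0.60 and Col11a2 at -0.70. The other 5 were Col9a3 at -0.52 (edgeR adjusted p = 0.0457), Col1a1 at 0.21, Col3a1 at -0.001, Col5a1 at -0.12 and Col5a2 at -0.061. The type I, III and V genes did not pass the adjusted p (edgeR, 0.301 or above). Col2a1, Col9a1 and Col11a2 belong to the chondrocyte marker list as well. The call of Col11a1 was lost without CON sample 1 (-0.56), where the list again held 5 DEGs, and that of Col11a2 when CON sample 2 or either of RA samples 1 and 2 was dropped. Of the 7 tested genes of elastic fibres only Mfap5, a microfibril protein, was a DEG, from 5.63 ± 0.616 to 2.84 ± 0.412 FPKM (mean ± SD, n = 3 per group), a log2FC of -0.997. Eln, the gene of elastin and the most abundant of these, had 324, 428 and 462 FPKM in CON and 439, 466 and 469 FPKM in RA, with a log2FC of 0.16 (edgeR adjusted p = 0.452). The type IV collagens gave 0 DEGs among 5 tested genes with edgeR, 3 of them with an unadjusted p under 0.05, and 2 DEGs with DESeq2. Past the adjusted p alone (edgeR), 0 were higher and 1 was lower in RA, and the log2FC values ran from -0.615 to 0.88. The most abundant, Col4a2, had a log2FC of 0.12, and the largest difference was that of Col4a4 at 0.88 (edgeR adjusted p = 0.0841) and 0.158 FPKM on average. Without CON sample 1, edgeR called 2 of the 5.

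Other enzymes that cross-link matrix were far less abundant than the lysyl oxidases, apart from Pxdn (peroxidasin, which cross-links type IV collagen) at a mean of 57.5 FPKM and a log2FC of -0.031. Tgm2, a transglutaminase, rose from 0.921 ± 0.169 to 1.74 ± 0.136 FPKM (mean ± SD, n = 3 per group), a log2FC of 0.91 (edgeR adjusted p = 0.0105), and was no DEG without RA sample 3 or with limma on log2(FPKM + 1), where its log2FC was 0.52. F13a1, the A chain of coagulation factor XIII, fell from 0.668 ± 0.0509 to 0.138 ± 0.0354 FPKM (mean ± SD, n = 3 per group), a log2FC of -2.27 (edgeR adjusted p = 8.88e-04). With limma on log2(FPKM + 1), a scale that understates the change of low genes, its log2FC was -0.55 and it was no DEG. The copper amine oxidase Aoc3 was tested alone of its list, at 0.34 FPKM and a log2FC of -0.53 (edgeR adjusted p = 0.224). Of 5 transcription factors of the epithelial-mesenchymal transition, with some of which Loxl2 and Loxl3 interact, 0 were DEGs with edgeR, DESeq2 or limma, and 1 had an unadjusted p under 0.05. The most abundant, Snai2, had a log2FC of 0.022, and Twist1, with the largest difference, had 0.43 (edgeR adjusted p = 0.00369).

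**Figure D4:**
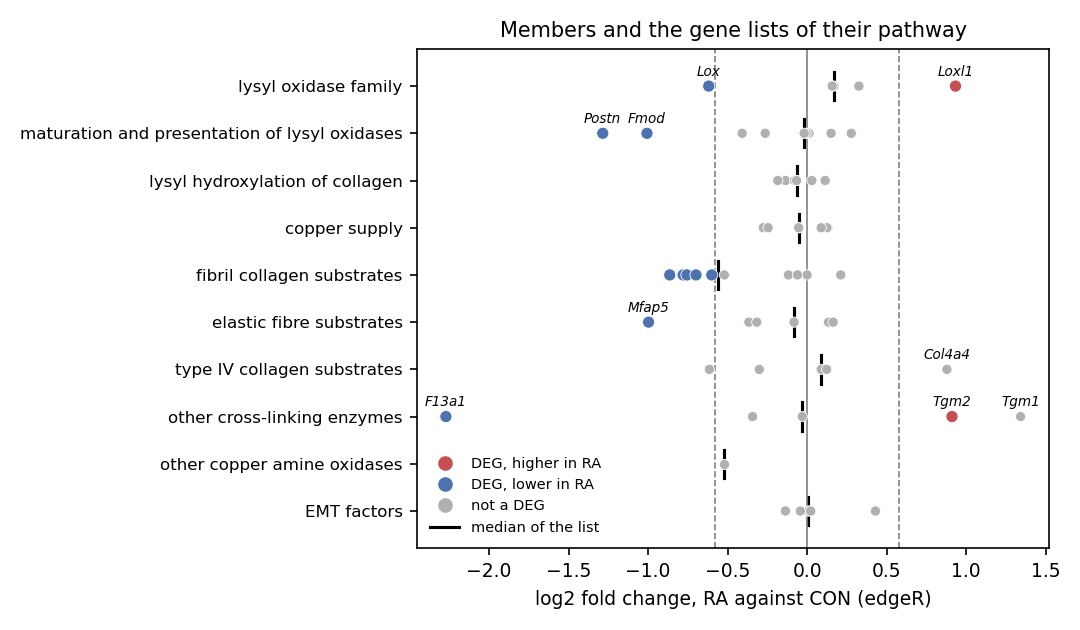
The x axis gives the log2FC of RA against CON from edgeR, with 1 point per tested gene of the lists on the y axis, coloured by whether it was a DEG, and a black line at each list's median. The median of the fibril collagens stands at -0.56, with the tested type I, III and V genes of that list between -0.12 and 0.21. The medians of lysyl hydroxylation (-0.067) and copper supply (-0.049) stand near 0, and Lox and Loxl1 lie on opposite sides of 0.

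The genes whose TMM-normalized log2 CPM ran most like each member over the 6 samples were taken from the 11342 tested genes with a mean of at least 1 FPKM. They share the libraries and the contrast with the member, so the correlations are descriptions. For Lox these included Osbpl6 (Pearson r = 0.997) and Anxa8 (0.997), with log2FC values of -0.46 and -1.41. For Loxl1 they were Ltbp3, a latent TGF-β binding protein (r = 1.00), Zbtb7b (0.999) and Col18a1 (0.999), with log2FC values of 0.82, 0.24 and 0.66. Without CON sample 1, the r with Loxl1 was 0.999 for Ltbp3 and 0.998 for both others. Slc39a1, Ephb2 and Mcrs1 ran most like Loxl2, Adck5, Slc29a3 and Pygb most like Loxl3, and Rpa2, Rreb1 and Nup205 most like Loxl4, with r from 0.994 to 0.999.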

How the data were processed

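Poly(A) RNA-Seq libraries of 3 CON and 3 RA samples were grouped and numbered by their labels. The authors deposited, per gene and sample, whole-number counts without normalization. They also deposited FPKM values, which the counts reproduce with 1 length per gene and the total count of the sample. The submitters' processing notes name HISAT2, HTSeq 0.13.5 and Rnor_6.0. The annotation release and the use of strand are not given in the sources used here, so reads of overlapping or antisense genes could be assigned to a member. No coordinates of Rnor_6.0 were used.

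Counts were tested with edgeR 4.0.16 in R 4.3.3 (TMM, filterByExpr with a minimum count of 10, glmQLFit and glmQLFTest, no covariates), which left 13438 genes, and p-values were adjusted over all of them. Standard errors come from the F statistic. The common biological coefficient of variation was 0.122. FPKM was used for levels, sums, shares and ratios, with two-sided exact permutation tests. Alternatives were DESeq2 1.42.0, limma 3.58.1 on log2(FPKM + 0.1) and log2(FPKM + 1), other normalizations, filters and call rules, a replicate block, and each sample left out. The scripts were tested on simulated data.

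Members, gene lists and tests were chosen with earlier results of these data known. Named were the members and, of each list, every DEG, the most abundant gene and the one with the largest log2 fold change. The fibril collagens that were not DEGs were named as well, after their values were seen. The 3 genes with the highest Pearson r to each member were also taken, of which 1 is not reported here. Of the listed genes, Pcolce2, Col1a2, Mfap4, Aoc1, Aoc2 and the markers Rgs5, Cd163, Pecam1 and Myog were not analysed here. Smooth muscle markers gave 1 DEG (Acta2, -0.83) and skeletal muscle markers 1 (Myod1, 1.93, at 0.23 FPKM, called in 3 of 6 fits with a sample left out and not with limma on log2(FPKM + 1)). Macrophage and endothelial markers gave 0 DEGs among 4 and 2 tested with edgeR and DESeq2, and 1 and 0 genes with an unadjusted p under 0.05. Promoters were taken from RefSeq (GRCr8), which held 3 of the 5 members.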

Additional observations from a re-analysis of the deposited data

How the results depend on the processing

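Lox and Loxl1 were DEGs, and Loxl2, Loxl3 and Loxl4 were not, in each of the 14 alternative fits. The number of members called was 2 in all of them and 3 by the adjusted p alone. With 1 sample left out, the log2 fold changes ranged from -0.65 to -0.59 for Lox, 0.74 to 1.08 for Loxl1, 0.11 to 0.22 for Loxl2, 0.085 to 0.21 for Loxl3 and 0.26 to 0.37 for Loxl4. The adjusted p of Loxl4 was below 0.05 in 11 of the 14. DEGs over all genes numbered 667, and 434 with limma on log2(FPKM + 1), 1319 by the adjusted p with no fold threshold and 1017 by an unadjusted p with the fold threshold. They numbered 480 to 755 with 1 sample left out. The scalings moved the median log2 fold change of all genes from -0.006 to at most 0.01. The summed FPKM of the family differed by 33.1 to 79.1 with 1 sample left out. The difference in log2 ratio of Loxl2 to Loxl3 was 0.0098 with all samples, -0.0028 without CON sample 2 and -0.019 without RA sample 1, in a range of -0.019 to 0.034 with 1 sample left out. The causes of these shifts were not tested. The samples share only a replicate number: deviations of same-numbered samples correlated at 0.093, -0.012 and 0.012. With the replicate block there were 684 DEGs, and the log2 fold changes of Lox and Loxl1 were -0.62 and 0.96. The list counts by sample and tool and the likeness without 1 sample were added after seeing the data. With 3 samples per group, the exact tests could not pass 0.05.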
